A study of Mus musculus with 11 samples.

Results

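H3K4me2, dimethylation of histone H3 at lysine 4, was compared between 2 libraries of mouse villus epithelium that both lack Cdx2 and, per their titles, lack Cdx1 or Hnf4a as well. Each library came with a list of called nucleosomes and a score per nucleosome, which is 10 times the −log10 of a p-value per the file headers. Nucleosomes scoring 52 or more were kept, which left 281957 in the list titled Cdx2-Cdx1 and 275915 in the list titled Cdx2-Hnf4a. Together these are 557872 of the 1570833 nucleosomes that the 5 H3K4me2 lists of the series hold as deposited. The scores next to this limit were 52 above and 51.8 below it in the Cdx2-Cdx1-titled list, and 52.2 above and 51.1 below it in the Cdx2-Hnf4a-titled list.

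The study mapped the intestinal factors CDX2 and HNF4A and the H3K4me2 mark by chromatin immunoprecipitation and sequencing in mouse villi. Per the labels' protocols, 15 mM EDTA freed the epithelium and a 70 µm filter held back the villi. Every H3K4me2 group has 1 library made from pooled ChIP DNA, so no difference between conditions has a replicate check. CDX2 in wild type has 2 libraries and HNF4A in wild type and in Cdx2 knockout has 1 each.

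The H3K4me2 groups are the Cdx2-Cdx1-titled double knockout, the Cdx2-Hnf4a-titled double knockout, the Cdx2 knockout, the Hnf4a knockout and wild type, all on a mixed 129xC57BL6 background. The label fields of both double knockouts conflict. Under the title Cdx2-Cdx1, Hnf4a stands as the partner of Cdx2 in the source and description fields. Under the title Cdx2-Hnf4a, the source repeats the title and the description has Cdx1 instead. All fields agree that Cdx2 is deleted in both, as it is in the Cdx2 knockout. No source used here gives the driver of the deletions or the ages of the animals, and no library of a Cdx1 single knockout was used. The antibody lots recorded for the Cdx2-Hnf4a-titled library differ in their last digit from those of the other H3K4me2 libraries.

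CDX2 and CDX1 are homeodomain proteins of the caudal family that bind closely similar DNA motifs in the intestinal epithelium. HNF4A is a nuclear receptor that works in enterocytes on genes of absorption and lipid handling and often binds beside CDX2. H3K4me2 lies on nucleosomes that flank active promoters and enhancers, commonly in pairs on either side of a nucleosome-poor centre where factors bind. In villus tissue fewer cells carrying the mark and less mark per cell cannot be told apart.

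The list titled Cdx2-Cdx1 was the longest of the 5 at a score of 52, with a median score of 199.1, and the list titled Cdx2-Hnf4a had a median of 238.9. The single-knockout and wild-type lists held 256794 (Cdx2 knockout), 250282 (Hnf4a knockout) and 245431 (wild type) nucleosomes with medians between 206.8 and 249.7. Read depth is unknown, and both list length and score move with it. Nucleosomes called on mitochondrial DNA, which carries no histones, numbered 31 in the Cdx2-Cdx1-titled list and 5 in the Cdx2-Hnf4a-titled list, against 6 in Cdx2 knockout, 32 in Hnf4a knockout and 25 in wild type. Their part in the results was not tested. No gene annotation of build mm9 was used here, so villus markers were not looked up and regions are given by position.

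Most nucleosomes were called in both double knockouts, and those called in one list alone were mainly weak. In the Cdx2-Cdx1-titled list 70311 nucleosomes, or 24.9% (95% interval 24.8 to 25.1), overlapped no nucleosome of the other double knockout. In the Cdx2-Hnf4a-titled list it was 64858, or 23.5% (23.3 to 23.7). These intervals are exact Clopper-Pearson intervals and, like all intervals here, cover counting error only. The median score of such nucleosomes was 87.9 in the Cdx2-Cdx1-titled list, where shared ones had a median of 285.4. It was 95.8 against 333 for shared ones in the Cdx2-Hnf4a-titled list. Which list has the larger share alone turned with the score limit: at a score of 100 or more it was 20.9% in the Cdx2-Cdx1-titled list and 23.2% in the Cdx2-Hnf4a-titled list.

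**Figure D1:**
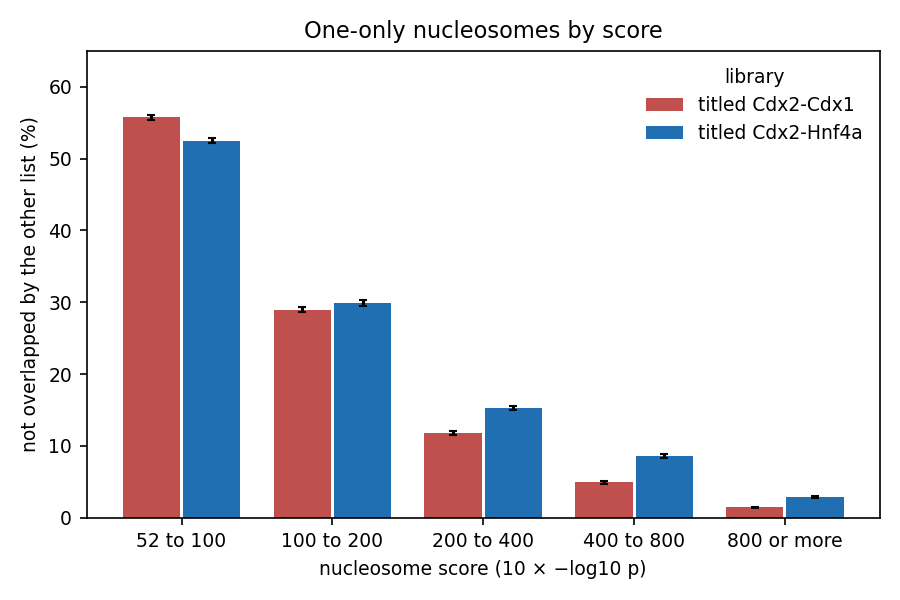
Share of each double-knockout list (%) that no nucleosome of the other double knockout overlaps, by nucleosome score (10 times −log10 p); error bars are exact 95% binomial intervals. The share drops from 55.7% at scores of 52 to 100 to 1.45% at 800 or more in the Cdx2-Cdx1-titled list and from 52.5% to 2.90% in the Cdx2-Hnf4a-titled list, which lies above the other in all bins from 200 up.

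Of the nucleosomes called in one list alone, 10.9% in the Cdx2-Cdx1-titled list and 12.7% in the Cdx2-Hnf4a-titled list still had one of the other list centred within 150 bp. In contrast, 21195 (30.1%) of the nucleosomes of the Cdx2-Cdx1-titled list alone and 14521 (22.4%) of the Cdx2-Hnf4a-titled list alone had none of the other list centred within 1 kb. These remote nucleosomes differed in where else they were called. Of those in the Cdx2-Cdx1-titled list, 29.4% overlapped a nucleosome in Cdx2 knockout, 38.2% one in Hnf4a knockout and 35.7% one in wild type. Of those in the Cdx2-Hnf4a-titled list, 25.0% did so in Cdx2 knockout, 10.1% in Hnf4a knockout and 13.3% in wild type. Over all nucleosomes of the Cdx2-Cdx1-titled list the shares were 71.6% in Cdx2 knockout, 66.7% in Hnf4a knockout and 66.3% in wild type, and over all of the Cdx2-Hnf4a-titled list 73.7%, 63.5% and 65.1% in those 3 lists. Hnf4a knockout thus had the lowest share for the Cdx2-Hnf4a-titled list both among the remote nucleosomes and over all of them, and the highest share for the remote nucleosomes of the Cdx2-Cdx1-titled list.

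The strongest remote nucleosomes show the range of these patterns. At chr13:109083651-109083741 a nucleosome scored 2805.7 in the Cdx2-Cdx1-titled list, and the nearest one of the Cdx2-Hnf4a-titled list lay 3770 bp away. It scored 1617.9 in Hnf4a knockout and 79.1 in wild type, and none was called in Cdx2 knockout. Its neighbour at chr13:109083131-109083221, within 1 kb of a wild-type HNF4A peak, scored 1632.9 in the Cdx2-Cdx1-titled list, 930.3 in Hnf4a knockout and 73.9 in wild type. Both were therefore strong in 1 library with and 1 library without Cdx2.

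On the other side, chr7:136387641-136387731 reached the ceiling score of 3250 in the Cdx2-Hnf4a-titled list, with the nearest Cdx2-Cdx1-titled nucleosome 35430 bp away. It scored 1707.4 in Cdx2 knockout, 206.8 in Hnf4a knockout and 236.8 in wild type. The nucleosome at chr16:95481651-95481841 scored 2964 in the Cdx2-Hnf4a-titled list and 161.5 in Cdx2 knockout, and was called in neither Hnf4a knockout nor wild type. A different pattern held at chr2:154845471-154845561, which scored 2396.9 in the Cdx2-Hnf4a-titled list and 3250 in both Cdx2 knockout and wild type. No nucleosome overlapped it in Hnf4a knockout, and the nearest in the Cdx2-Cdx1-titled list was 20215 bp away.

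To allow for small shifts in position, the genome was cut into 5 kb windows, and a window counted as marked in one double knockout only where it held at least 3 nucleosomes there and 0 in the other. Of 37604 windows with at least 3 nucleosomes in the Cdx2-Cdx1-titled list, 963, or 2.56% (2.40 to 2.73), were empty in the other double knockout. Of 35991 such windows of the Cdx2-Hnf4a-titled list, 550, or 1.53% (1.40 to 1.66), were empty in the other. Most lay close to the limit, with exactly 3 nucleosomes in 603 of those of the Cdx2-Cdx1-titled list and in 370 of those of the Cdx2-Hnf4a-titled list. Just outside it, 2124 windows held 2 nucleosomes in the Cdx2-Cdx1-titled list and 0 in the other, and 1496 did so for the Cdx2-Hnf4a-titled list. The marks in windows of one list alone were weak, with a mean score per nucleosome of 123 in windows of the Cdx2-Cdx1-titled list alone against 485 in all its marked windows. For the Cdx2-Hnf4a-titled list the mean was 159 in windows of that list alone and 566 in all its marked windows. At a score of 100 or more the counts of such windows were closer, 489 for the Cdx2-Cdx1-titled list alone and 435 for the Cdx2-Hnf4a-titled list alone.

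The 2 sets of windows differed in their state in the other genotypes. Windows of the Cdx2-Cdx1-titled list alone were usually marked in wild type, whereas windows of the Cdx2-Hnf4a-titled list alone usually were not. At least 1 nucleosome was present in wild type in 74.2% (71.4 to 77.0) of windows of the Cdx2-Cdx1-titled list alone and in 31.5% (27.6 to 35.5) of those of the Cdx2-Hnf4a-titled list alone, a difference of 42.8 points (37.9 to 47.4, Newcombe interval). For Hnf4a knockout the share was 79.0% (76.3 to 81.6) for the Cdx2-Cdx1-titled set and 26.2% (22.6 to 30.1) for the Cdx2-Hnf4a-titled set, a difference of 52.8 points (48.2 to 57.1). In Cdx2 knockout it was 70.4% (67.4 to 73.3) for the Cdx2-Cdx1-titled set and 58.2% (53.9 to 62.3) for the Cdx2-Hnf4a-titled set, a smaller difference of 12.2 points (7.21 to 17.2). With the lists as deposited, where the Hnf4a knockout list reaches far lower scores, the difference for Hnf4a knockout was 27.8 points. Among all windows marked in either double-knockout list, between 92.4% and 97.3% held a nucleosome in each of these 3 lists.

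**Figure D2:**
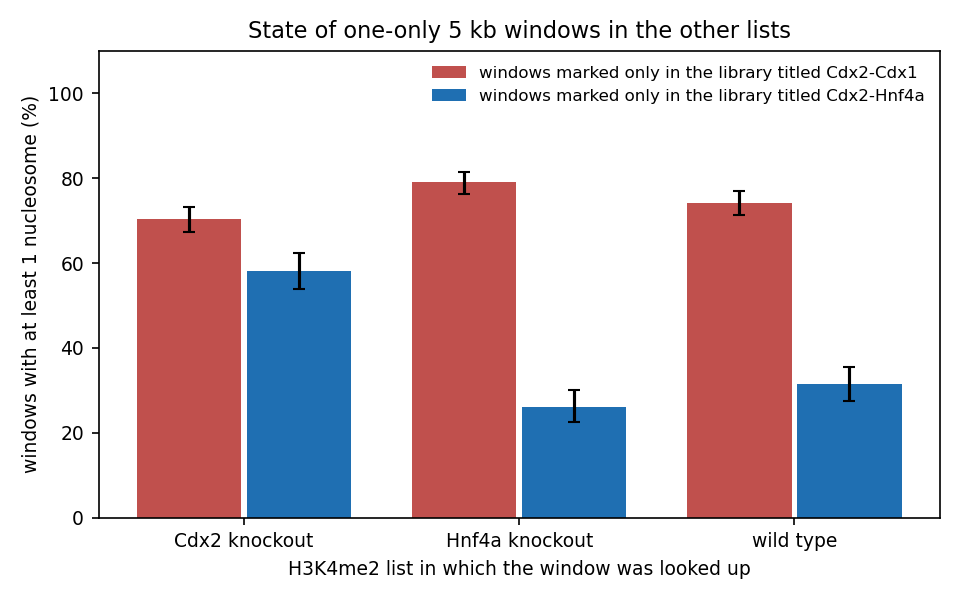
Share (%) of 5 kb windows marked in one double knockout only that hold at least 1 nucleosome in Cdx2 knockout, Hnf4a knockout and wild type; error bars are exact 95% binomial intervals. Windows of the Cdx2-Cdx1-titled list alone (left bars, 963 windows) lie between 70.4% and 79.0%, and windows of the Cdx2-Hnf4a-titled list alone (right bars, 550 windows) lie at 58.2%, 26.2% and 31.5%.

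Taking the 3 other lists jointly, 575 (59.7%) of the windows of the Cdx2-Cdx1-titled list alone were marked in all of them, so that the Cdx2-Hnf4a-titled list was the only empty one of the 5. This held the other way round for 92 (16.7%) of the windows of the Cdx2-Hnf4a-titled list alone. Windows empty in all 3 other lists numbered 120 (12.5%) for the Cdx2-Cdx1-titled list and 196 (35.6%) for the Cdx2-Hnf4a-titled list. Those otherwise marked in Cdx2 knockout alone numbered 41 (4.26%) for the Cdx2-Cdx1-titled list and 138 (25.1%) for the Cdx2-Hnf4a-titled list. Windows marked in Hnf4a knockout and wild type but empty in Cdx2 knockout made up 99 (10.3%) of the Cdx2-Cdx1-titled set and 9 (1.64%) of the Cdx2-Hnf4a-titled set. Conversely, windows marked in Cdx2 knockout and wild type but empty in Hnf4a knockout made up 24 (2.49%) of the Cdx2-Cdx1-titled set and 65 (11.8%) of the Cdx2-Hnf4a-titled set.

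Set against wild type directly, more wild-type windows were empty in the Cdx2-Hnf4a-titled library than in any other knockout. Of 32763 windows with at least 3 nucleosomes in wild type, 752 (2.30%) were empty in the Cdx2-Cdx1-titled list and 1745 (5.33%) in the Cdx2-Hnf4a-titled list, beside 768 (2.34%) in Cdx2 knockout and 237 (0.723%) in Hnf4a knockout. Windows marked in a knockout and empty in wild type were 2355 (6.26%) in the Cdx2-Cdx1-titled list, 2727 (7.58%) in the Cdx2-Hnf4a-titled list, 775 (2.30%) in Cdx2 knockout and 369 (1.10%) in Hnf4a knockout. All these values share the 1 wild-type list.

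The windows with the most nucleosomes illustrate the contrast. At chr11:78230001-78235000, which holds a wild-type HNF4A peak, 16 nucleosomes were called in the Cdx2-Cdx1-titled list and 0 in the Cdx2-Hnf4a-titled list, with 10 in Cdx2 knockout, 14 in Hnf4a knockout and 16 in wild type. The window chr7:86980001-86985000, with an HNF4A peak in wild type and in Cdx2 knockout, held 16 in the Cdx2-Cdx1-titled list, 0 in the Cdx2-Hnf4a-titled list, 19 in Cdx2 knockout and 20 each in Hnf4a knockout and wild type. Likewise chr9:65265001-65270000, with no factor peak, held 11 in the Cdx2-Cdx1-titled list, 0 in the Cdx2-Hnf4a-titled list, 7 in Cdx2 knockout and 13 each in Hnf4a knockout and wild type. In each of these windows the Cdx2-Hnf4a-titled list stood alone in being empty.

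Most of the windows leading in the opposite direction were empty in wild type. At chr17:35775001-35780000 the Cdx2-Cdx1-titled list had 0 nucleosomes and the Cdx2-Hnf4a-titled list 17, with 0 in the other 3 lists, and the same held at chr7:53350001-53355000 with 15 and at chr6:87295001-87300000 with 12 in the Cdx2-Hnf4a-titled list. At chr16:95480001-95485000 there were 0 in the Cdx2-Cdx1-titled list, 16 in the Cdx2-Hnf4a-titled list, 10 in Cdx2 knockout and 0 in both Hnf4a knockout and wild type. The window chr7:136400001-136405000 held 0 in the Cdx2-Cdx1-titled list, 13 in the Cdx2-Hnf4a-titled list, 6 in Cdx2 knockout and 2 each in Hnf4a knockout and wild type. None of these 5 windows held a CDX2 or HNF4A peak. For the Cdx2-Cdx1-titled list the fullest window empty in Cdx2 knockout and wild type, chr17:80280001-80285000, held 8 nucleosomes and was empty in Hnf4a knockout too.

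Runs of adjacent windows marked in one list and empty in the other were mostly short. Counting windows with at least 1 nucleosome, 766 of 10243 runs of the Cdx2-Cdx1-titled list and 438 of 8280 runs of the Cdx2-Hnf4a-titled list covered 2 windows or more. The longest of the Cdx2-Hnf4a-titled list, chr16:95460001-95490000, spanned 30 kb with 0 nucleosomes in the Cdx2-Cdx1-titled list, 32 in the Cdx2-Hnf4a-titled list, 13 in Cdx2 knockout and 0 in both Hnf4a knockout and wild type. The longest of the Cdx2-Cdx1-titled list, chr16:30470001-30500000, also spanned 30 kb, with 12 nucleosomes there, 0 in the Cdx2-Hnf4a-titled list, 3 in Cdx2 knockout, 9 in Hnf4a knockout and 7 in wild type. This second stretch held wild-type peaks of CDX2 in 1 window and of HNF4A in 2 windows, and the first held none.

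Factor peaks divided the 2 sets of windows. Wild-type CDX2 and HNF4A peaks were more frequent in windows of the Cdx2-Cdx1-titled list alone than in all its marked windows, and far less frequent in windows of the Cdx2-Hnf4a-titled list alone. A CDX2 peak of either wild-type library lay in 203 (21.1%, 18.5 to 23.8) of the 963 windows of the Cdx2-Cdx1-titled list alone, against 14.4% of all its marked windows. It lay in 19 (3.45%, 2.09 to 5.34) of the 550 windows of the Cdx2-Hnf4a-titled list alone, against 13.1% of all marked there. HNF4A peaks lay in 352 (36.6%, 33.5 to 39.7) of the windows of the Cdx2-Cdx1-titled list alone, against 27.3% of all its marked windows. For the Cdx2-Hnf4a-titled list they lay in 23 (4.18%, 2.67 to 6.21), against 24.7% of all marked. Both factors had a peak in 131 (13.6%) against 7.91% of all marked for the Cdx2-Cdx1-titled list, and in 2 (0.364%) against 6.88% of all marked for the Cdx2-Hnf4a-titled list. Without CDX2 library 1 the CDX2 shares were smaller in the same directions, 5.71% against 4.08% of all marked for the Cdx2-Cdx1-titled list and 1.64% against 3.71% for the Cdx2-Hnf4a-titled list. No wild-type peak of either factor lay in 539 (56.0%) of the windows of the Cdx2-Cdx1-titled list alone and in 510 (92.7%) of those of the Cdx2-Hnf4a-titled list alone. The 2 sets also differ in their wild-type state. Among windows marked in all 3 other lists, CDX2 peaks lay in 27.3% for the Cdx2-Cdx1-titled list and 5.43% for the Cdx2-Hnf4a-titled list. HNF4A peaks there lay in 50.6% and 9.78%. Among windows empty in all 3, CDX2 peaks lay in 7.5% and 2.04%, and HNF4A peaks in 10% and 2.04%. For CDX2 peaks not all states went this way. The shares were 10.5% and 12% where only wild type of the 3 was empty, and 4.17% and 4.62% where only Hnf4a knockout was. They were 0% and 0.725% where only Cdx2 knockout was marked, and 6.12% and 11.1% where only Hnf4a knockout was. Each of these shares rests on at most 4 windows with a CDX2 peak. The 5.43% and 2.04% of the Cdx2-Hnf4a-titled list for CDX2 peaks are 5 of 92 and 4 of 196 windows.

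Read the other way, 3.74% (3.25 to 4.28) of windows with a CDX2 peak that were marked in the Cdx2-Cdx1-titled list were empty in the other double knockout, beside 2.56% of all its marked windows. Peaks of CDX2 library 1 alone gave 3.83% and those of library 2 alone 3.58%. With an HNF4A peak it was 3.42% (3.08 to 3.79) and with both 4.40% (3.70 to 5.21). For windows marked in the Cdx2-Hnf4a-titled list, beside 1.53% of all of them, it was 0.404% (0.244 to 0.631) with a CDX2 peak (0.270% with library 1 alone and 0.674% with library 2 alone), 0.258% (0.164 to 0.387) with an HNF4A peak and 0.0807% (0.00978 to 0.291) with both. The higher share of peaks in windows of the Cdx2-Cdx1-titled list alone depended on the window limit. When 1 nucleosome was enough, the difference from all marked windows was -1.45 points for CDX2 peaks and -4.02 points for HNF4A peaks.

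Because windows with few nucleosomes are more easily empty in the second list, the shares were also taken at equal counts. Among windows with exactly 3 nucleosomes in the Cdx2-Cdx1-titled list, 11.2% of those with a CDX2 peak, 12.2% of those with an HNF4A peak and 5.15% of those with neither were empty in the other. With 7 or more nucleosomes it was 0.695% with a CDX2 peak, 0.587% with an HNF4A peak and 0.246% with neither. For the Cdx2-Hnf4a-titled list, windows with 3 nucleosomes were empty in the other in 1.78% with a CDX2 peak, 1.10% with an HNF4A peak and 5.01% with neither. At 3 nucleosomes, windows without a peak were thus empty in the other list about equally often in either direction, and windows with a peak were empty mainly in the Cdx2-Hnf4a-titled list.

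**Figure D3:**
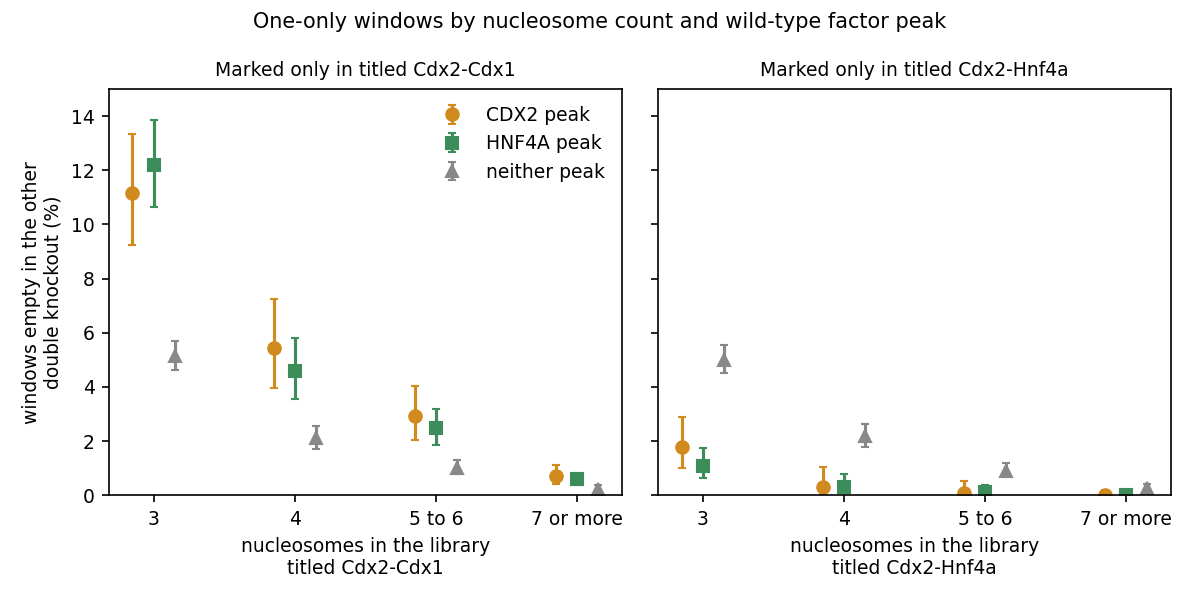
Share (%) of marked 5 kb windows that are empty in the other double knockout, by the number of nucleosomes in the window, for windows with a wild-type CDX2 peak, an HNF4A peak or neither; left, windows of the Cdx2-Cdx1-titled list, right, windows of the Cdx2-Hnf4a-titled list, bars are exact 95% binomial intervals. Peak windows lie above windows without a peak on the left (11.2% and 12.2% against 5.15% at 3 nucleosomes) and below them on the right (1.78% and 1.10% against 5.01%).

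With peaks mapped in the single knockouts, the windows of the Cdx2-Hnf4a-titled list alone were again poor in peaks, while those of the Cdx2-Cdx1-titled list alone were not rich in the HNF4A peaks of Cdx2 knockout. HNF4A peaks of Cdx2 knockout lay in 126 (13.1%, 11.0 to 15.4) of the windows of the Cdx2-Cdx1-titled list alone, against 16.7% of all its marked windows, and in 14 (2.55%, 1.40 to 4.23) of those of the Cdx2-Hnf4a-titled list alone, against 15.5%. Of the 352 windows of the Cdx2-Cdx1-titled list alone with a wild-type HNF4A peak, 113 (32.1%) had one in Cdx2 knockout too, against 48.9% of all its marked windows with such a peak. For the Cdx2-Hnf4a-titled list this was 6 of 23 (26.1%), against 49.5%. CDX2 peaks of Hnf4a knockout lay in 40 (4.15%, 2.98 to 5.61) against 3.25% of all marked for the Cdx2-Cdx1-titled list, and in 7 (1.27%, 0.513 to 2.60) against 3.09% of all marked for the Cdx2-Hnf4a-titled list.

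The same lean was present over all marked windows, whether or not the other list was empty. Of 42509 windows with at least 3 nucleosomes in either double knockout, 39.5% held more in the Cdx2-Cdx1-titled list and 38.0% more in the Cdx2-Hnf4a-titled list. With a CDX2 peak, 52.2% held more in the Cdx2-Cdx1-titled list and 28.0% more in the Cdx2-Hnf4a-titled list. With an HNF4A peak it was 52.8% for the Cdx2-Cdx1-titled list and 27.3% for the Cdx2-Hnf4a-titled list, and with both peaks 59.8% for the Cdx2-Cdx1-titled list and 22.7% for the Cdx2-Hnf4a-titled list. Windows with no factor peak leaned the other way, with 34.2% fuller in the Cdx2-Cdx1-titled list and 42.3% fuller in the Cdx2-Hnf4a-titled list.

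At the factor sites themselves, nucleosomes centred within 1 kb were counted and the ratio of the 2 lists was scaled by list length. A CDX2 site here is a region called in both wild-type libraries. The Cdx2-Cdx1-titled list held more nucleosomes in all 3 classes of site. At 684 CDX2 sites with an HNF4A peak it had 3.45 per site, against 2.63 in the Cdx2-Hnf4a-titled list, a ratio of 1.28 (1.21 to 1.37). At 900 CDX2 sites without HNF4A it had 1.70, against 1.38 in the Cdx2-Hnf4a-titled list, a ratio of 1.20 (1.12 to 1.30). At 21616 HNF4A peaks without a CDX2 site the ratio was 1.13 (1.12 to 1.15). For comparison, 2865 HNF4A peaks called in Cdx2 knockout and not in wild type had 3.05 in the Cdx2-Cdx1-titled list and 2.91 in the Cdx2-Hnf4a-titled list, a ratio of 1.02 (0.994 to 1.06), whose interval includes equality.

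Site by site, 378 (55.3%) of the 684 co-occupied sites had more nucleosomes in the Cdx2-Cdx1-titled list, 76 (11.1%) had more in the Cdx2-Hnf4a-titled list and 230 (33.6%) were equal. The co-occupied sites marked in the Cdx2-Cdx1-titled list and empty in the other were 117 (17.1%), and the reverse was seen at 6 (0.877%). At CDX2 sites without HNF4A, 95 (10.6%) were marked in the Cdx2-Cdx1-titled list alone and 9 (1.00%) in the Cdx2-Hnf4a-titled list alone. Whether HNF4A was still called in Cdx2 knockout changed the ratio little, 1.12 (1.10 to 1.14) at 6487 kept and 1.15 (1.13 to 1.16) at 15129 lost HNF4A peaks without a CDX2 site. The ratio at co-occupied sites was also alike where CDX2 was called in Hnf4a knockout (1.28, 1.16 to 1.40, 284 sites) and where it was not (1.29, 1.19 to 1.40, 400 sites).

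Single sites show how large these differences were. At the co-occupied site chr14:46635635-46637035 the counts within 1 kb were 6 in the Cdx2-Cdx1-titled list, 0 in the Cdx2-Hnf4a-titled list, 6 in Cdx2 knockout, 7 in Hnf4a knockout and 8 in wild type. The site chr13:114559919-114560966 had 0 in the Cdx2-Hnf4a-titled list and 5 in each of the other 4. At chr1:58834307-58835089 there were 5 in the Cdx2-Cdx1-titled list, 0 in the Cdx2-Hnf4a-titled list, 1 in Cdx2 knockout, 6 in Hnf4a knockout and 5 in wild type. At the first of these sites the Cdx2-Cdx1-titled list equalled Cdx2 knockout, at the second both Cdx2 knockout and wild type, and at the last wild type. No co-occupied site had a difference beyond 3 nucleosomes in favour of the Cdx2-Hnf4a-titled list. At that difference 3 sites were tied. Of these, chr4:34937765-34938559 had 3 in the Cdx2-Cdx1-titled list, 6 in the Cdx2-Hnf4a-titled list, 6 in Cdx2 knockout, 3 in Hnf4a knockout and 6 in wild type. The site chr2:147818946-147819635 had 3 in the Cdx2-Cdx1-titled list, 6 in the Cdx2-Hnf4a-titled list, 4 in Cdx2 knockout and 2 each in Hnf4a knockout and wild type, and chr10:24358203-24358868 had 5 in the Cdx2-Cdx1-titled list, 8 in the Cdx2-Hnf4a-titled list, 6 in Cdx2 knockout and 7 each in Hnf4a knockout and wild type. The tied sites therefore differed in their wild-type state.

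The Cdx2 knockout list shares the Cdx2 deletion with both. Scaled to it, the Cdx2-Cdx1-titled list had a ratio of 1.01 (0.948 to 1.07, which includes 1) at co-occupied sites and the Cdx2-Hnf4a-titled list 0.783 (0.735 to 0.835). At CDX2 sites without HNF4A the ratio was 1.09 (1.01 to 1.18) for the Cdx2-Cdx1-titled list and 0.907 (0.838 to 0.981) for the Cdx2-Hnf4a-titled list. HNF4A peaks without a CDX2 site had 0.933 (0.922 to 0.943) in the Cdx2-Cdx1-titled list and 0.822 (0.812 to 0.831) in the Cdx2-Hnf4a-titled list, both below Cdx2 knockout after scaling by list length. Without scaling, the Cdx2-Cdx1-titled list held more at these peaks than Cdx2 knockout, 62770 against 61301 nucleosomes, and the Cdx2-Hnf4a-titled list held 54135. Unscaled counts at co-occupied sites were 2359 in the Cdx2-Cdx1-titled list, 1799 in the Cdx2-Hnf4a-titled list and 2137 in Cdx2 knockout. At CDX2 sites without HNF4A they were 1533, 1245 and 1278 in the same order. The intervals above hold only for the ratios scaled by list length. Scaled to wild type, the Cdx2-Cdx1-titled list had 0.779 at co-occupied sites, 0.766 at CDX2 sites without HNF4A and 0.812 at HNF4A peaks without a CDX2 site. The Cdx2-Hnf4a-titled list had 0.607 at co-occupied sites, 0.636 at CDX2 sites without HNF4A and 0.715 at the other HNF4A peaks. Both double knockouts thus held fewer nucleosomes than wild type in every class. These comparisons share the Cdx2 knockout list or the wild-type list.

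**Figure D4:**
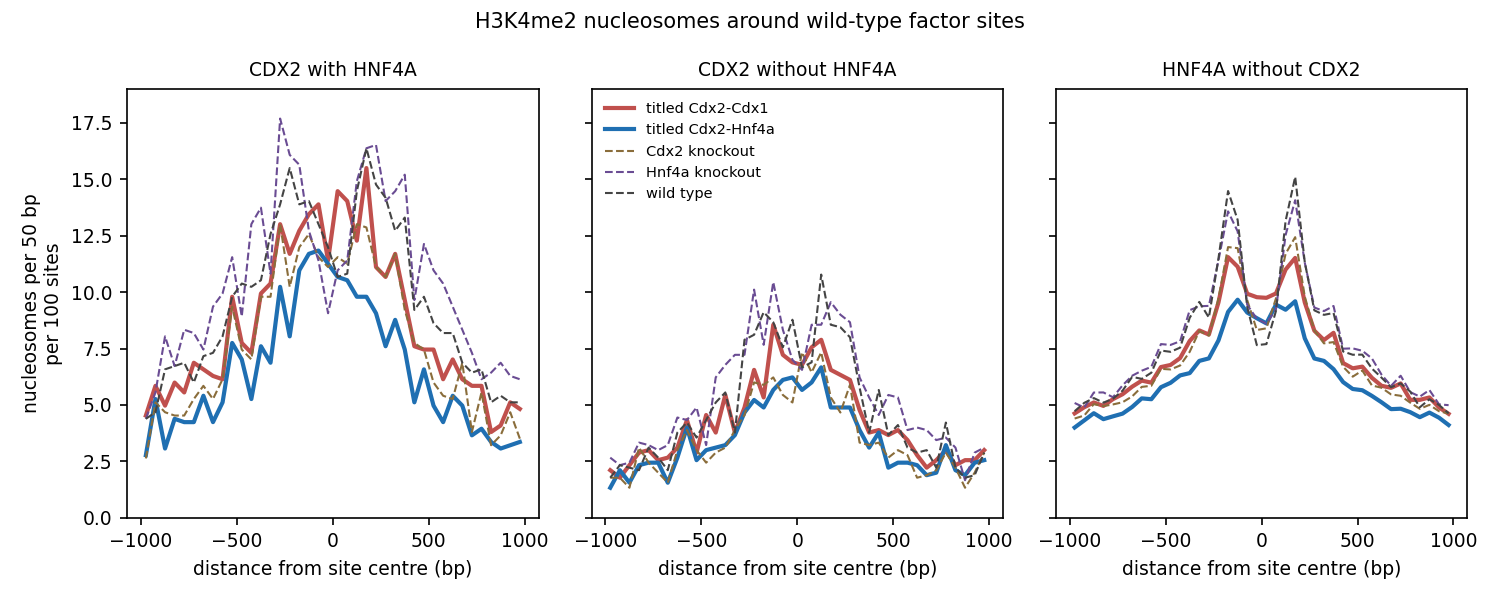
Nucleosome centres per 50 bp and per 100 sites against the distance from the site centre (bp), for CDX2 sites with HNF4A, CDX2 sites without HNF4A and HNF4A peaks without a CDX2 site, in the Cdx2-Cdx1-titled, Cdx2-Hnf4a-titled, Cdx2 knockout, Hnf4a knockout and wild-type lists, not scaled by list length. At HNF4A peaks without a CDX2 site the tallest bins reach 11.6 in the Cdx2-Cdx1-titled list and 9.66 in the Cdx2-Hnf4a-titled list, against 15.1 in wild type, and the dip at the centre is shallowest in the double knockouts.

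The arrangement of nucleosomes around the sites differed as well. In wild type the nucleosomes flanking the sites bound by HNF4A left a dip at the centre, and in both double knockouts the centre was denser relative to the flanks than in wild type. At HNF4A peaks without a CDX2 site a shallow dip remained, with 9.78 and 9.75 nucleosomes per 100 sites in the 50 bp bins beside the centre in the Cdx2-Cdx1-titled list, against 11.6 in its fullest bin. The density within 100 bp of co-occupied site centres, divided by the density 150 to 400 bp away, was 1.16 in the Cdx2-Cdx1-titled list and 1.28 in the Cdx2-Hnf4a-titled list, against 1.03 in Cdx2 knockout, 0.711 in Hnf4a knockout and 0.844 in wild type. At HNF4A peaks without a CDX2 site it was 1.08 in the Cdx2-Cdx1-titled list and 1.19 in the Cdx2-Hnf4a-titled list, against 0.986 in Cdx2 knockout, 0.850 in Hnf4a knockout and 0.791 in wild type. At CDX2 sites without HNF4A it was 1.33 in the Cdx2-Cdx1-titled list and 1.38 in the Cdx2-Hnf4a-titled list, against 1.33 in Cdx2 knockout, 0.979 in Hnf4a knockout and 1.08 in wild type. The Cdx2-Hnf4a-titled list had the highest value in all 3 classes, and wild type or Hnf4a knockout the lowest.

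The loci of Hnf4a and Cdx1 were examined for what they show about the contradictory labels. The Hnf4a interval of mm9 spans chr2:163330001-163400000. In the RefSeq gene table of the later build GRCm38, used here for names and lengths only, Hnf4a is 66.1 kb long and lies between R3hdml and Ttpal. The interval held 73 nucleosomes in the Cdx2-Cdx1-titled list, 65 in the Cdx2-Hnf4a-titled list, 73 in Cdx2 knockout, 99 in Hnf4a knockout and 88 in wild type. The Hnf4a knockout list had the most nucleosomes at the gene it lacks, and every 5 kb window of the interval marked in wild type was marked in it too. Its scores there were lower, with a sum of 29755 against 36948 in wild type and a median of 180.9 against 239.2. Lower scores were not particular to this interval. The median was 206.8 against 241.6 in wild type over the whole lists, and 333.9 against 383.1 in the Cdx1 interval. The Hnf4a knockout list also held fewer nucleosomes than wild type in adjoining windows. Counts were 12 against 13 from 163360001 to 163365000, 12 against 17 from 163365001 to 163370000 and 8 against 12 from 163370001 to 163375000. No window marked in wild type was thus emptied in Hnf4a knockout, which leaves no wholly lost window to look for in the double knockouts. A loss within part of a 5 kb window, or where wild type had no nucleosomes, could not be seen this way.

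Within the interval, 163360001 to 163370000 held few nucleosomes in all 3 lists from villi lacking Cdx2. Its 2 windows had 1 and 4 nucleosomes in the Cdx2-Cdx1-titled list, 2 and 2 in the Cdx2-Hnf4a-titled list and 2 and 7 in Cdx2 knockout, against 12 and 12 in Hnf4a knockout and 13 and 17 in wild type. The double knockouts parted further on. From 163376001 to 163377000 there were 4 in the Cdx2-Cdx1-titled list, 0 in the Cdx2-Hnf4a-titled list, 4 in Cdx2 knockout, 4 in Hnf4a knockout and 2 in wild type. Around a CDX2 site from 163378001 to 163380000 there were 4 in the Cdx2-Cdx1-titled list, 0 in the Cdx2-Hnf4a-titled list, 4 in Cdx2 knockout, 7 in Hnf4a knockout and 4 in wild type. In both stretches the Cdx2-Hnf4a-titled list alone was empty, and the Hnf4a knockout list was not.

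The Cdx1 interval, chr18:61170001-61200000, held 63 nucleosomes in the Cdx2-Cdx1-titled list, 58 in the Cdx2-Hnf4a-titled list, 51 in Cdx2 knockout, 55 in Hnf4a knockout and 54 in wild type. Cdx1 is 17.3 kb long in the same gene table. The totals were alike, but single stretches differed. The longest, 4 kb from 61179001 to 61183000, held 0 nucleosomes in the Cdx2-Cdx1-titled list, also below the score limit. It held 13 in the Cdx2-Hnf4a-titled list, with scores up to 1085.6. Cdx2 knockout had 1 there (score 174.4), Hnf4a knockout 1 (56.4) and wild type 10 (up to 694.6). As deposited, Hnf4a knockout had 9, of which all but 1 were below the score limit, in a list that reaches far lower scores than the others. The stretch lies just beyond a region, 61177595 to 61178393, bound by CDX2 and HNF4A in wild type. At the score limit the stretch was thus full in the Cdx2-Hnf4a-titled list and wild type and held 0 or 1 nucleosomes in the Cdx2-Cdx1-titled list and both single knockouts, which carry no Cdx1 deletion by any label. In the opposite direction, 61190001 to 61192000 held 5 in the Cdx2-Cdx1-titled list, 0 in the Cdx2-Hnf4a-titled list, 3 each in Cdx2 knockout and Hnf4a knockout and 0 in wild type.

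**Figure D5:**
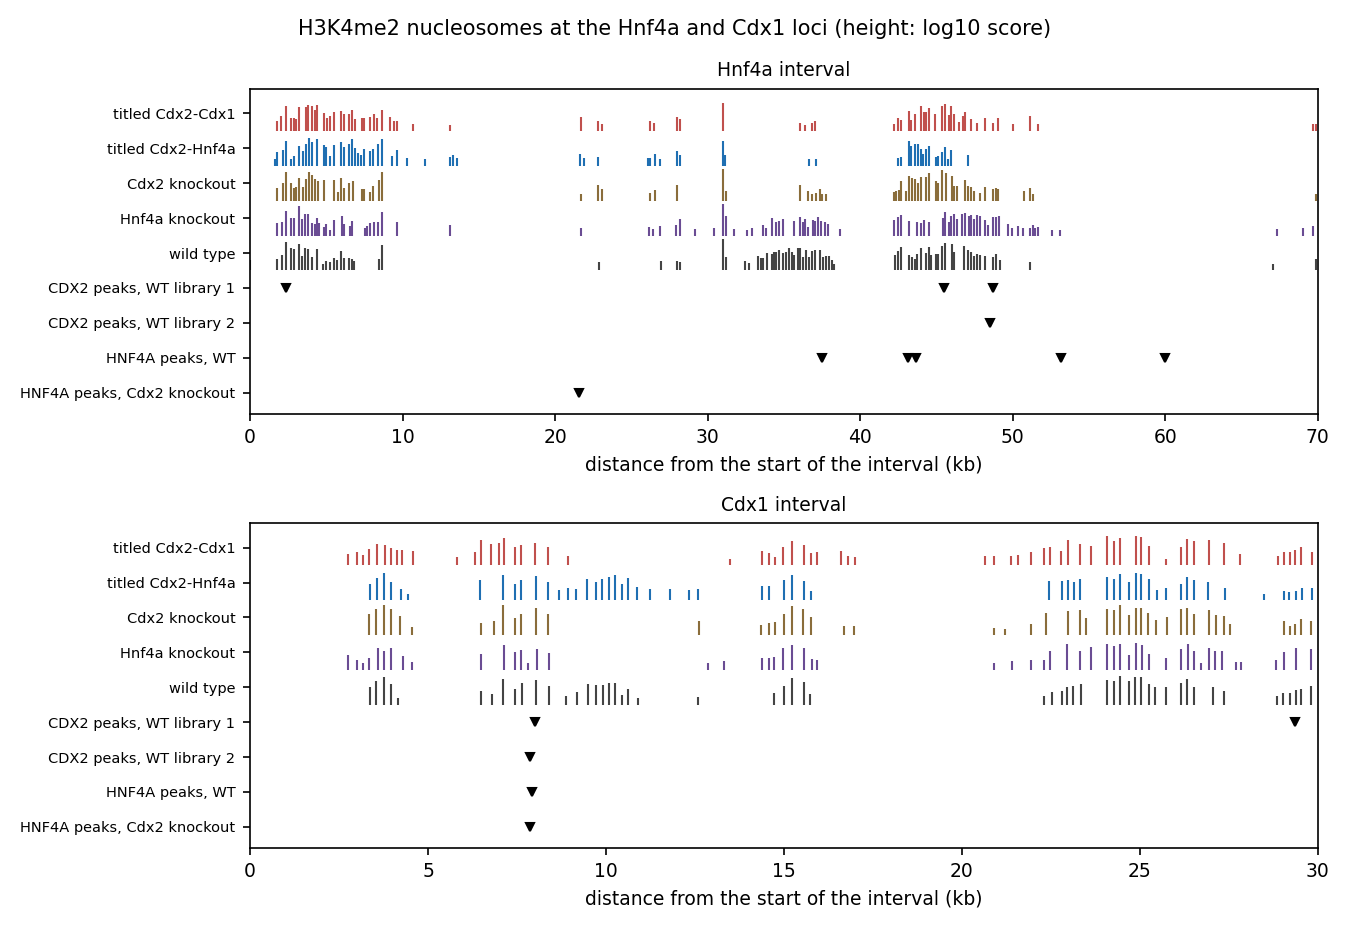
Called nucleosomes (vertical lines, height by log10 score) along the Hnf4a interval (70 kb) and the Cdx1 interval (30 kb), by distance from the interval's start (kb), with the centres of factor peaks as triangles. In the Hnf4a interval the Hnf4a knockout row holds 99 nucleosomes against 88 in wild type, and in the Cdx1 interval a stretch of 4 kb is empty in the Cdx2-Cdx1-titled row and holds 13 nucleosomes in the Cdx2-Hnf4a-titled row.

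A second look at the labels came from windows that 1 double knockout shares with the Hnf4a knockout. Windows with at least 2 nucleosomes in the 3 other lists and 0 in both the Hnf4a knockout and the Cdx2-Cdx1-titled list numbered 53, of which 9 (17.0%, 8.07 to 29.8) lay on chromosome 2, the chromosome of Hnf4a, and 4 (7.55%, 2.09 to 18.2) within 10 Mb of the Hnf4a interval. The windows empty in both the Hnf4a knockout and the Cdx2-Hnf4a-titled list numbered 25, with 0 on chromosome 2 (upper limit of the interval 13.7%). Of all windows with at least 2 nucleosomes in either double knockout, 7.56% lay on chromosome 2 and 1.30% within 10 Mb of Hnf4a. With a limit of 1 nucleosome there were 547 windows for the Cdx2-Cdx1-titled list with 19 (3.47%, 2.10 to 5.37) near Hnf4a, and 428 for the Cdx2-Hnf4a-titled list with 4 (0.935%, 0.255 to 2.38), beside 1.27% of all. Windows empty in the Cdx2-Cdx1-titled list and marked in the Hnf4a knockout and the other lists also lay near Hnf4a more often than all windows at this limit, 17 of 731 (2.33%, 1.36 to 3.70). At a limit of 2 such windows numbered 83, with 6 (7.23%, 2.70 to 15.1) on chromosome 2 and 0 near Hnf4a (upper limit of the interval 4.35%). Windows empty in the Cdx2-Hnf4a-titled list and marked in the Hnf4a knockout and the other lists numbered 626 at this limit. Of these, 52 (8.31%, 6.27 to 10.8) lay on chromosome 2 and 10 (1.60%, 0.769 to 2.92) near Hnf4a. At a limit of 1 they numbered 2499, with 29 (1.16%, 0.779 to 1.66) near Hnf4a. With the lists as deposited and a limit of 2, where more nucleosomes are called in Hnf4a knockout, the windows shared with Hnf4a knockout were 17 for the Cdx2-Cdx1-titled list, with 6 (35.3%, 14.2 to 61.7) on chromosome 2 and 3 (17.6%, 3.80 to 43.4) near Hnf4a, and 1 for the Cdx2-Hnf4a-titled list, with 0 on chromosome 2. An enrichment of chromosome 2 among such windows was already known when these counts were chosen, so it is no independent evidence. At the score limit of 52, windows with at least 2 nucleosomes only in Hnf4a knockout and the Cdx2-Cdx1-titled list numbered 64. Those only in Hnf4a knockout and the Cdx2-Hnf4a-titled list numbered 12. With wild type in place of Hnf4a knockout the numbers were 18 and 5.

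An example within 10 Mb of Hnf4a was the neighbouring pair of windows chr2:154840001-154845000 and chr2:154845001-154850000, which hold the nucleosome of score 2396.9 given above. They had 0 nucleosomes in the Cdx2-Cdx1-titled list, 3 and 4 in the Cdx2-Hnf4a-titled list, 3 and 4 in Cdx2 knockout, 0 in Hnf4a knockout and 2 and 4 in wild type, and the lists with 0 had none there at any score. Here the Cdx2-Cdx1-titled library, whose source and description name Hnf4a, was the one alike with Hnf4a knockout. The same pattern occurred farther away and on other chromosomes. The window chr2:145055001-145060000, 18.27 Mb from the interval, held 6 in the Cdx2-Hnf4a-titled list, 4 each in Cdx2 knockout and wild type and 0 in the others. At chr9:31235001-31240000 there were 5 in the Cdx2-Hnf4a-titled list, 6 in Cdx2 knockout, 2 in wild type and 0 in the others. The loci and these windows rest on few nucleosomes from 1 library each, and they do not settle which second gene either library lacks.

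Chromosome shares of all windows marked in one list only gave no further separation. Chromosome 2 held 9.35% of the windows of the Cdx2-Cdx1-titled list alone, against 7.56% of its marked windows, and 8.91% against 7.58% of all marked for the Cdx2-Hnf4a-titled list. For chromosome 18, which carries Cdx1, the shares were 4.26% against 3.37% of all marked for the Cdx2-Cdx1-titled list and 3.82% against 3.35% for the Cdx2-Hnf4a-titled list. For chromosome 2 in the Cdx2-Cdx1-titled list the difference was 1.79 points (0.0243 to 3.80), the only interval of the 4 that excluded 0. This is the exact interval of the share among windows of that list alone, with the share of all marked taken as fixed. It included 0 under every other setting tried for this difference. The values were 0.0542 points (-0.432 to 0.563) at a limit of 1 nucleosome and 0.767 (-0.185 to 1.80) at 2. They were 0.0520 (-3.43 to 5.01) at 5 and 1.32 (-0.287 to 3.14) with the lists as deposited.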

How the data were processed

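ChIP-seq lists of 10 of 11 samples were used, and the input DNA was not analysed here. The authors deposited a score per called nucleosome (10 times −log10 of a p-value, per the file headers) and a score per factor peak, on build mm9 per the submitters' processing notes. No source used here names the aligner or caller. Read depth is unknown. Groups follow the titles. Members, lists and windows were chosen with earlier results of these data known.

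Nucleosomes scoring 52 or more were kept and counted as shared when they overlapped by 1 bp, or by their centres in 5 kb windows. Shares have exact Clopper-Pearson 95% intervals, differences of shares between the 2 lists Newcombe intervals, and ratios exact binomial intervals. Differences from all marked windows have the exact interval of the share in windows of one list alone, with the share of all marked taken as fixed. With 1 library per group there is no p-value between conditions. The windows named were the 5 fullest per direction (3 per state), with the 3 strongest nucleosomes without another within 1 kb, the 5 co-occupied sites differing most and the 3 longest stretches. Other score limits, window limits, overlaps, scalings and peak sets were tried. Python 3.11.15, NumPy 2.4.6, pandas 2.3.3 and SciPy 1.17.1 were used, and the counting was tested on simulated lists. Planned gene lists, markers and motifs needed an mm9 genome or annotation and were not run.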

Additional observations from a re-analysis of the deposited data

Results flagged for a closer look

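At CDX2 sites the ratios of the 2 double knockouts to the Cdx2 knockout list fell on opposite sides of 1, and the difference between them was not tested because each has 1 library. At CDX2 sites with HNF4A the scaled ratio of nucleosomes within 1 kb to Cdx2 knockout was 1.01 (0.948 to 1.07, which includes 1) for the Cdx2-Cdx1-titled list and 0.783 (0.735 to 0.835) for the Cdx2-Hnf4a-titled list. At CDX2 sites without HNF4A it was 1.09 (1.01 to 1.18) for the Cdx2-Cdx1-titled list and 0.907 (0.838 to 0.981) for the Cdx2-Hnf4a-titled list. Both comparisons share the Cdx2 knockout list, and their intervals depend on scaling by list length. Unscaled counts at CDX2 sites with HNF4A were 2359 in the Cdx2-Cdx1-titled list, 1799 in the Cdx2-Hnf4a-titled list and 2137 in Cdx2 knockout. At CDX2 sites without HNF4A they were 1533, 1245 and 1278 in the same order.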

How the results depend on the processing

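Of 150 alternative values for 23 results, 88 moved by less than the counting error (counts by less than 1.5 times), 60 moved further and 2 turned direction with intervals that exclude 0. The cause was not tested. Among the 88 are 3 that changed sign with intervals that include 0: the Cdx1 locus difference (5, and -1 at a score of 100) and, at a limit of 1 nucleosome, the chromosome 18 difference in points (0.883, and -0.0604, in the Cdx2-Cdx1-titled list, 0.473, and -0.0017, in the Cdx2-Hnf4a-titled list). Values below give the Cdx2-Cdx1-titled list before the Cdx2-Hnf4a-titled list. The share of nucleosomes in one list alone was 26.2% and 22.8% in the lists as deposited, 24.5% and 22.3% with the other list as deposited, 20.9% and 23.2% at a score of 100, 24.0% and 24.2% at equal list length, 28.5% and 27.8% when sharing needed an overlap over at least 50% of a nucleosome, and 10.2% and 7.14% when a centre within 500 bp counted as shared. Windows in one list only numbered 11108 and 8753 at a limit of 1 nucleosome, 3087 and 2046 at 2, and 179 and 74 at 5. At a limit of 3 they numbered 489 and 435 at a score of 100, and 866 and 615 at equal list length.

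The CDX2 peak share of such windows minus that of all marked was -1.45 and -6.05 points at a limit of 1, 1.60 and -7.62 at 2, 12.8 and -13.5 at 5, 1.10 and -1.63 with sites of both CDX2 libraries, and 10.1 and -11.6 with neighbouring windows. Leaving out a CDX2 library gave 1.63 to 6.26 and -9.31 to -2.07. For HNF4A it was -4.02 and -14.3 at 1, 2.76 and -17.2 at 2, 14.4 and -26.3 at 5, and 12.5 and -26.6 with neighbouring windows. The directions at a limit of 1 are turned for the Cdx2-Cdx1-titled list.

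The difference between lists in the share of these windows marked elsewhere, in points, was 3.69 (Cdx2 knockout), 28.9 (Hnf4a knockout) and 22.7 (wild type) at a limit of 1, 31.1, 68.1 and 59.3 at 5, and for Hnf4a knockout and wild type 45.1 and 35.0 at 2 and 46.8 and 36.7 when 3 nucleosomes marked the other list. For Hnf4a knockout it was 27.8 in the lists as deposited. The share of all nucleosomes found in Cdx2 knockout, Hnf4a knockout and wild type differed by -3.30, 2.69 and 0.182 points as deposited, -0.398, 4.96 and 2.87 at a score of 100, and by -3.19 (Cdx2 knockout) and 4.75 (Hnf4a knockout) with the stricter overlap. The ratio at HNF4A peaks without a CDX2 site was 1.16 with no scaling. Leaving out a CDX2 library gave 1.20 to 1.27 at co-occupied sites and 1.11 to 1.12 at CDX2 sites without HNF4A. The chromosome 18 share in the Cdx2-Hnf4a-titled list differed by 3.60 points at a limit of 5. No paired analysis was possible because each H3K4me2 group has 1 library and no test was made.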
